A study of Mus musculus with 12 samples.

Results

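A set of 10 matrix remodelling genes is described here across mouse liver macrophage preparations: the matrix metalloproteinases Mmp8, Mmp9, Mmp12, Mmp13, Mmp14, Mmp19 and Mmp27, the tissue inhibitors Timp1 and Timp2, and the aggrecanase Adamts4. They are 10 of the 25700 genes in the table of read counts, chosen by name with earlier results of these data known. Their values in all 4 groups were therefore in view when they were listed, and the calls given for them come from a fit of the whole table and describe the values rather than test a choice made without them. RNA was sequenced from non-parenchymal liver cells enriched with beads for F4/80, a surface protein of mouse macrophages, in mice labelled as male and 8 to 10 weeks old. The 4 groups held 3 libraries each: Spta sph/sph mice 30 h after an intraperitoneal injection of agonistic anti-CD40 antibody at 20 mg/kg, Spta wt/wt (WT) littermates after the same antibody, Spta sph/sph mice given saline, and WT mice given saline. Sph/sph mice lack normal alpha spectrin, a protein of the red cell skeleton, and destroy their fragile red cells throughout life. The antibody reached the whole animal, and the beads enrich rather than sort, so markers of other cell types are given beside the results.

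Matrix metalloproteinases are zinc-dependent endopeptidases that are made as inactive precursors and cut collagens, elastin, basement membrane proteins and many cell-surface and signalling proteins. Tissue inhibitors of metalloproteinases bind the active site and hold the enzymes in check, and the ADAMTS enzymes are secreted relatives that act on proteoglycans and other matrix proteins. In the liver, macrophages are a known source of several of these enzymes during injury and the resolution of scars, and stellate and endothelial cells are known sources of others and of the inhibitors.

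The libraries held 14991250 to 18984067 counts each. Library A of every group had 0 counts over 4 Y-linked genes, whereas the other 8 libraries had 2436 to 4055, although the labels describe male mice. The count table's columns call the control genotype heterozygous where the labels call it WT. Library C of sph/sph anti-CD40 stood apart from A and B of its group: summed over 10 monocyte markers it had 540 CPM (counts scaled to a fixed library total after TMM normalization) against 2276 and 1562 CPM, over 8 erythroid markers 3844 against 10540 and 14710 CPM, and over 9 immature granulocyte markers 304.5 against 77.5 and 22.5 CPM. Macrophage markers differed between the groups as well. The sum of 8 macrophage markers was 11610 to 15610 CPM in sph/sph anti-CD40, 1054 to 2753 CPM in WT anti-CD40, 17560 to 25100 CPM in sph/sph saline and 21700 to 23890 CPM in WT saline, with every marker detected in each group. All 8 fell with anti-CD40 in WT. In such bulk samples fewer cells of a type and less RNA per cell cannot be told apart.

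**Figure D1:**
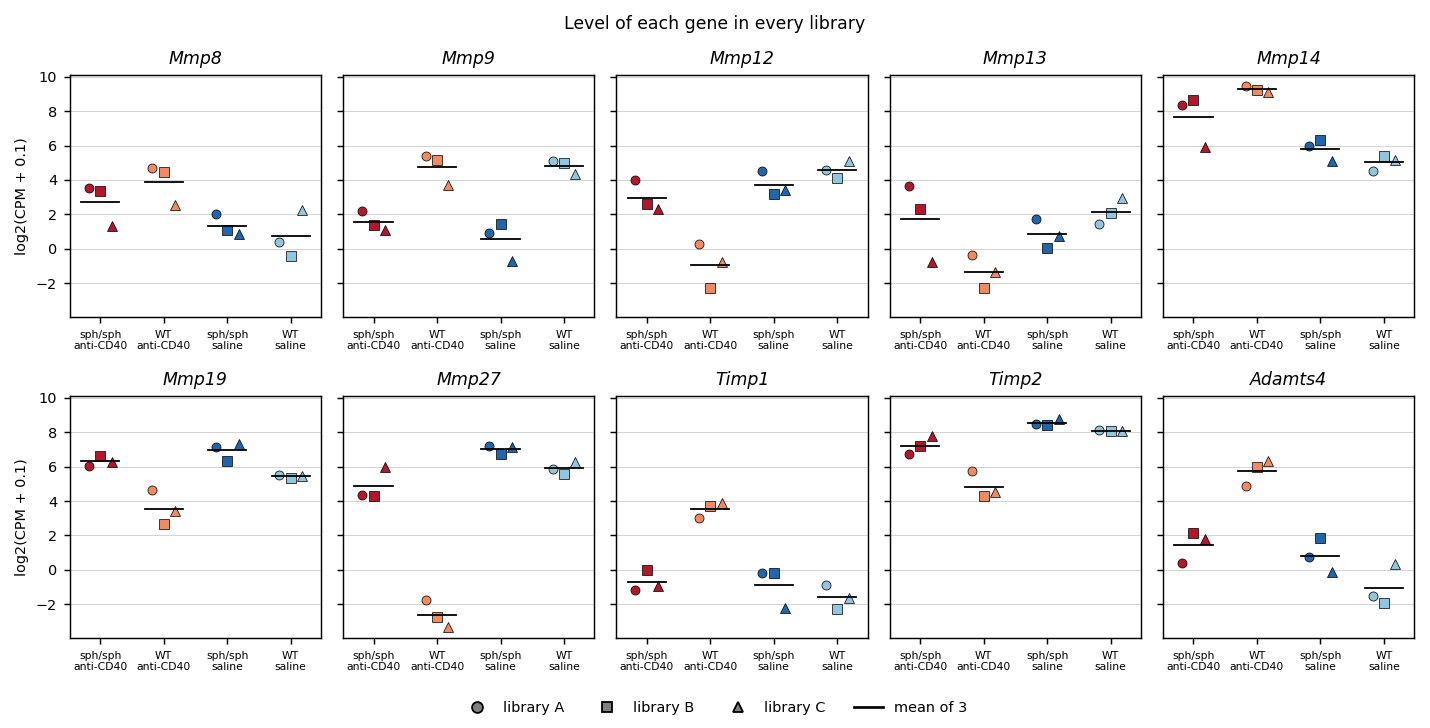
Level of the 10 genes in the 12 libraries, as log2(CPM + 0.1) on the vertical axis, with 1 point per library (circle A, square B, triangle C) and a bar at the mean of the 3 log values. Mmp27 lies below 0.2 CPM in the WT anti-CD40 libraries and above 19 CPM in all others, and Timp1 and Adamts4 are high in WT anti-CD40 alone.

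Per kilobase of exon, the scale used to compare genes, Timp2 was the most abundant of the 10 transcripts under saline, at 96.8 ± 12.8 CPM per kb in sph/sph and 70.1 ± 2.27 CPM per kb in WT (SD, n = 3). Mmp27 came next, at 59.3 ± 10.5 CPM per kb in sph/sph saline and 27.7 ± 6.89 CPM per kb in WT saline, then Mmp19 at 36.1 ± 11.5 and 12.2 ± 0.762 CPM per kb in the same order. These first 3 places did not overlap in library range with their neighbours in either saline group. Mmp14 led after the antibody, at 43.9 ± 29.9 CPM per kb in sph/sph and 103 ± 14.99 CPM per kb in WT. In WT anti-CD40 its range lay above that of the next gene, Timp1 (13.2 ± 3.92 CPM per kb), whereas in sph/sph anti-CD40 the ranges of Mmp14, Timp2, Mmp19 and Mmp27 overlapped from 1 to the next. Mmp27, second under saline, was the last of the 10 in WT anti-CD40, at 0.038 ± 0.0468 CPM per kb. Timp1 and Adamts4 were among the last 3 in the other 3 groups. All 10 genes passed the filter on low counts, which asks for 0.609 CPM in at least 3 libraries: Timp1 passed it in 6 libraries, Mmp13 and Mmp27 in 9 and the other genes in 10 or more.

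Mmp13, Mmp12, Mmp8 and Mmp27 belong to a cluster of 10 Mmp genes on chromosome 9, in which the other 6 had at most 14 counts each over the 12 libraries. On build GRCm38 (GENCODE M21) Mmp13 (ENSMUSG00000050578) spans chr9:7272514-7283331, Mmp12 (ENSMUSG00000049723) chr9:7344381-7369499, Mmp8 (ENSMUSG00000005800) chr9:7558456-7568485 and Mmp27 (ENSMUSG00000070323) chr9:7571396-7581885, all on the plus strand and protein coding. Mmp8 ends 2910 bases before Mmp27 starts. The group sums of this pair ran in opposite directions in WT. Mmp8 had 918 counts in WT anti-CD40 and 117 in WT saline, and Mmp27 had 4 counts in WT anti-CD40 and 3181 in WT saline. Mmp12 and Mmp13, in contrast, were both low in WT anti-CD40 (29 and 18 counts) and higher in WT saline (1304 and 251 counts), and their log2 CPM correlated with r = 0.80 over the 12 libraries, which share the group structure. The windows from 250 bases before to 50 bases after the start site are printed for both pairs, from RefSeq on GRCm38.p6, because Mmp8 and Mmp27 moved apart in WT and Mmp12 and Mmp13 moved together. Capitals mark the AP-1 motif TGANTCA, which reads the same on both strands.
Mmp13, chr9:7272264-7272563, plus strand: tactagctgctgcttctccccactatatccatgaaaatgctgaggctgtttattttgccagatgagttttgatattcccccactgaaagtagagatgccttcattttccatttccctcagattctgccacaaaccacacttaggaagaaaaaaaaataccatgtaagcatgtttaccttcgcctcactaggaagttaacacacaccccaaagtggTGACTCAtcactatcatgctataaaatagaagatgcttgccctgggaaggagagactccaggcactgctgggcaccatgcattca
Mmp12, second start site, chr9:7347124-7347423, plus strand: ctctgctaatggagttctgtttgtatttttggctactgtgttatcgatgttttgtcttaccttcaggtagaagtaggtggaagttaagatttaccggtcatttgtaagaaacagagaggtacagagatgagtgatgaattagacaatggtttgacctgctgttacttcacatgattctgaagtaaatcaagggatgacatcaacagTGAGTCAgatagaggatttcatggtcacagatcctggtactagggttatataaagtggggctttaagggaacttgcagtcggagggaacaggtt
Mmp8, chr9:7558179-7558478, plus strand: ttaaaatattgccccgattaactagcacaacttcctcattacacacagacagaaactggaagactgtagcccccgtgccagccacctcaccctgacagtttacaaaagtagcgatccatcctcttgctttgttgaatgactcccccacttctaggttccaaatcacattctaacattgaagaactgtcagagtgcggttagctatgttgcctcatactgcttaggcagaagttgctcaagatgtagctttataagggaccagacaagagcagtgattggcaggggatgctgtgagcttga
Mmp27, chr9:7571146-7571445, plus strand: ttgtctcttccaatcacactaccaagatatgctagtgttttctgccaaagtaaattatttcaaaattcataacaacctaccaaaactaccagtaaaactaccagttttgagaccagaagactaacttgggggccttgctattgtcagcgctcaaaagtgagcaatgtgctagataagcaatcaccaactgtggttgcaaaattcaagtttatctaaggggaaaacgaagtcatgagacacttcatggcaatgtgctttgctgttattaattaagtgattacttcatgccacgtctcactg
The Mmp13 window holds TGACTCA starting 35 bases before the start site, and this Mmp12 window holds TGAGTCA starting 44 bases before it. The windows of Mmp8 and Mmp27 and that of the first Mmp12 start site hold no TGANTCA, and neither do those of Mmp14, Timp1 and Timp2, the other genes for which a window was matched. Of all 32851 windows of this length 7.81% hold the motif. The first Mmp12 window is not printed, and counts per gene do not show which Mmp12 start site was used. A part of the motif in the levels of these genes was not tested. The ETS motif AGGAAG (35.4% of all windows, either strand) matched in the windows of Mmp8, Mmp13, Mmp14 and Timp1 and the first Mmp12 window. GGGNNNTCC (17.8%), an NF-kB-like motif that includes GGGNNTTCC (5.82%), matched in the first Mmp12 window and that of Timp2, while GGGNNTTCC itself and CACGTG (7.15%) matched in none of the 8 windows.

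Under saline, sph/sph livers differed from WT in 1 of the 10 genes. Mmp9 (ENSMUSG00000017737, chr2:164940780-164955850), gelatinase B, which cuts denatured and basement membrane collagens and is well known as a granule enzyme of neutrophils, stood at 1.80, 2.61 and 0.524 CPM in sph/sph saline (libraries A to C), against 33.7, 31.15 and 20.1 CPM in WT saline. The lowest WT library lay above the highest sph/sph library. The mean was 1.64 ± 1.05 CPM in sph/sph and 28.3 ± 7.24 CPM in WT (SD, n = 3 each), a log2 fold of -4.10 ± 0.62 (SE; edgeR adjusted p = 0.00929). The sum over 16 neutrophil markers was 182 to 302 CPM in sph/sph saline and 157 to 213 CPM in WT saline, and 1 was higher in sph/sph and none lower. That list shares genes with the 9 immature granulocyte markers, whose sum was 40.8 to 87.5 CPM in sph/sph saline and 0.824 to 8.42 CPM in WT saline. The part of these cells in the Mmp9 difference was not tested. All 8 erythroid markers were higher in sph/sph (4504 to 8082 CPM in sph/sph saline and 63.7 to 279 CPM in WT saline), and their part was not tested.

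The other 9 genes were not called under saline. Mmp19 (ENSMUSG00000025355, chr10:128790910-128800824), an enzyme of basement membrane breakdown, stood at 143, 81.3 and 158 CPM in sph/sph saline and at 45.6, 40.3 and 43.8 CPM in WT saline. Its groups did not overlap, and its log2 fold was 1.56 ± 0.43 (adjusted p = 0.114). Mmp27, a metalloproteinase whose substrates are little known, stood at 149, 105 and 140 CPM in sph/sph saline and at 58.7, 47.6 and 77.7 CPM in WT saline, again without overlap (log2 fold 1.10 ± 0.46, adjusted p = 0.343). Of the others, log2 folds ran from -1.30 ± 0.95 for Mmp13 to 1.89 ± 0.80 for Adamts4. The 1 call of 10 compares with 2.04% of the 13844 genes tested, 0.433% for lower calls, and groups without overlap in 4 of 10 with 31% of all genes. The median log2 fold of the 10 genes was 0.63 and that of all genes 0.01. Mmp9 was not called without the 4 libraries that lack Y-linked transcripts (log2 fold -4.03, adjusted p = 0.202, where 0.0926% of genes were called and none of them lower), while Mmp19 was called without WT anti-CD40 A (adjusted p = 0.0246) and by DESeq2 (adjusted p = 0.0136).

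**Figure D2:**
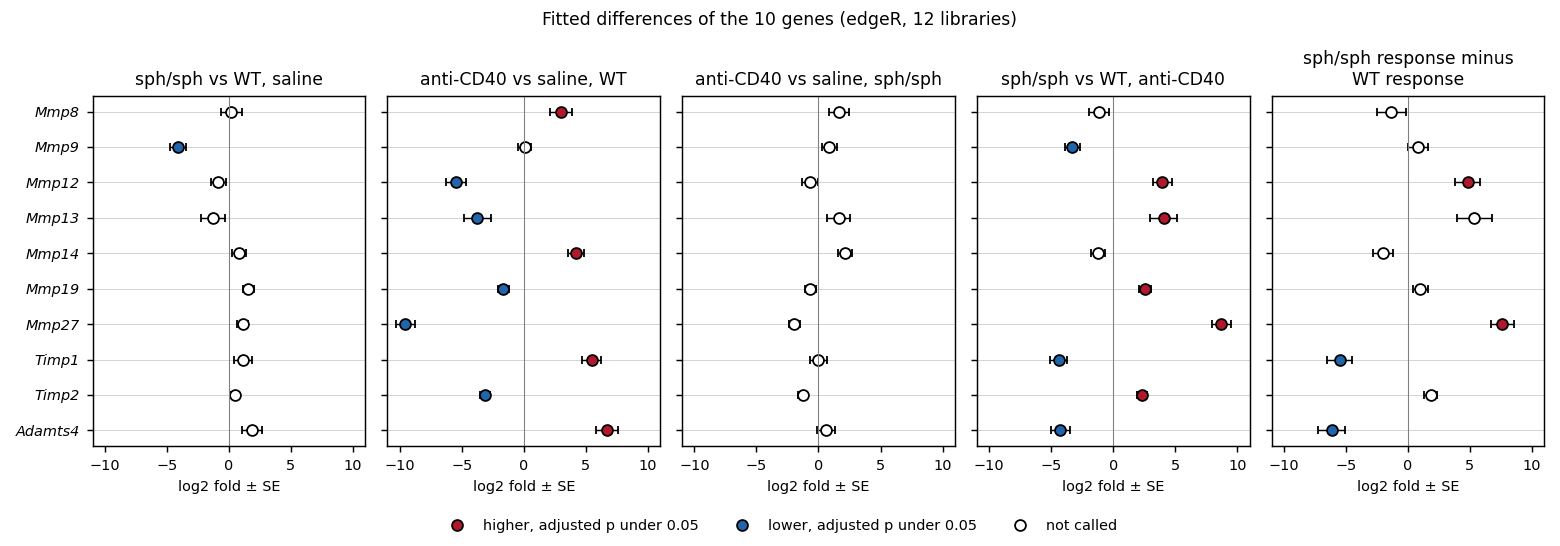
Log2 folds of the 10 genes with their standard errors (horizontal axis) in the 4 comparisons and the difference of responses, filled where the adjusted p was under 0.05. In WT the antibody response shows 4 genes higher and 5 lower, and in sph/sph no point is filled.

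In WT mice the antibody moved 9 of the 10 genes. Mmp14, Mmp8, Timp1 and Adamts4 rose, and Mmp27, Mmp12, Mmp13, Mmp19 and Timp2 fell, with Mmp9 the exception. This compares with 39.2% of all genes tested, 19.4% higher and 19.7% lower. The groups did not overlap for 9 of the 10, against 57.3% of all genes, and the median log2 fold was -0.79 over the 10 and 0.05 over all genes.

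Among the proteases that rose, Mmp14 (ENSMUSG00000000957, chr14:54431612-54445364), a membrane-anchored enzyme that cuts fibrillar collagen and activates the precursor of Mmp2, stood at 716, 592 and 542 CPM in WT anti-CD40 (libraries A to C), against 23.3, 42.5 and 35.4 CPM in WT saline. The lowest treated library was more than 10 times the highest saline library, and the log2 fold was 4.19 ± 0.63 (adjusted p = 0.000793). Mmp8, a collagenase stored in neutrophil granules, stood at 25.3, 22.0 and 5.76 CPM in WT anti-CD40 and at 1.22, 0.659 and 4.77 CPM in WT saline. Treated library C lay close to saline library C, and the log2 fold was 2.99 ± 0.86 (adjusted p = 0.0203). The sum of 16 neutrophil markers was 348 to 945 CPM in WT anti-CD40 and 157 to 213 CPM in WT saline, 7 of them rose, and library C was the lowest of the 3 treated libraries in Mmp8 and in that sum alike. Their part in the change of Mmp8 was not tested. Adamts4 (ENSMUSG00000006403, chr1:171250421-171260637), which cuts the proteoglycans aggrecan and versican, stood at 29.5, 63.7 and 80.1 CPM in WT anti-CD40 and at 0.257, 0.165 and 1.16 CPM in WT saline, a log2 fold of 6.74 ± 0.89 (adjusted p = 0.000376). Treated library A, the lowest in Adamts4, was also the lowest in the sum of 12 endothelial markers, which was 1236, 2706 and 4509 CPM in WT anti-CD40 A, B and C, against 1429, 3488 and 2686 CPM in WT saline. That sum overlapped between the treatments and 1 of its 12 genes rose. Markers of other cells rose in the same comparison as Mmp14, Adamts4 and Timp1. Of 12 T and NK cell markers 11 rose, with a sum of 228, 2023 and 736 CPM in WT anti-CD40 A, B and C and 15.1 to 25.6 CPM in WT saline. Of 10 monocyte markers 6 rose (3547, 2600 and 1323 CPM in WT anti-CD40 A, B and C and 262.5 to 404 CPM in WT saline). Of 9 dendritic cell markers 5 rose (1431, 563 and 601 CPM in the same order and 73.2 to 94.4 CPM in WT saline). Within WT anti-CD40 the monocyte sum fell from A to C, as Mmp14 did, whereas Adamts4 and Timp1 rose from A to C. The dendritic cell sum was highest in A, where Mmp14 was highest and Adamts4 and Timp1 were lowest. The part of these cells in the rises was not tested.

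Mmp27 fell furthest. It had 3, 1 and 0 counts in WT anti-CD40 A, B and C and 913, 866 and 1402 counts in WT saline, with a log2 fold of -9.55 ± 0.78 (adjusted p = 2.72e-05). The ratio of summed counts per unit of depth, WT saline over WT anti-CD40, was 835, with an exact 95% interval of 326 to 3067 that covers counting error only. Mmp12, the macrophage elastase, stood at 1.13, 0.105 and 0.492 CPM in WT anti-CD40 and at 23.8, 17.0 and 34.6 CPM in WT saline (log2 fold -5.47 ± 0.79, adjusted p = 0.00065). Mmp13, the main interstitial collagenase of rodents, stood at 0.665, 0.105 and 0.295 CPM in WT anti-CD40 and at 2.57, 4.12 and 7.54 CPM in WT saline (log2 fold -3.75 ± 1.08, adjusted p = 0.0204). No treated library reached a saline library in any of the 3. Mmp19 fell less, to 24.7, 6.19 and 10.4 CPM in WT anti-CD40, against 45.6, 40.3 and 43.8 CPM in WT saline (log2 fold -1.65 ± 0.44, adjusted p = 0.0139). Macrophage markers fell in the same libraries: all 8, and 11 of 13 Kupffer cell markers, whose sum was 1395 to 2466 CPM in WT anti-CD40 and 31220 to 36450 CPM in WT saline. Their part in these falls was not tested. Mmp9 stood at 41.2, 35.6 and 13.1 CPM in WT anti-CD40 and 33.7, 31.15 and 20.1 CPM in WT saline, with overlapping groups and a log2 fold of 0.08 ± 0.53 (adjusted p = 0.92).

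The inhibitors went opposite ways in WT. Timp1 (ENSMUSG00000001131, chrX:20870166-20874735), an inducible inhibitor of most secreted metalloproteinases, stood at 7.85, 12.9 and 14.5 CPM in WT anti-CD40 and at 0.450, 0.110 and 0.222 CPM in WT saline (log2 fold 5.48 ± 0.75, adjusted p = 0.000447). It lies on the opposite strand within Syn1, with no shared exon. Timp2 (ENSMUSG00000017466, chr11:118301069-118355740, minus strand), which blocks metalloproteinases and also links Mmp14 to the Mmp2 precursor, fell to 52.7, 19.2 and 23.04 CPM in WT anti-CD40, against 283, 266 and 270 CPM in WT saline (log2 fold -3.11 ± 0.39, adjusted p = 0.000292). The Mmp8 call was lost when WT saline A or B or WT anti-CD40 A or B was left out (adjusted p = 0.073, 0.0648, 0.051 and 0.0539, in that order), and that of Mmp13 without WT saline C or WT anti-CD40 B or C (0.0609, 0.0701 and 0.0641) and by limma-voom (0.0641). Without the 4 libraries that lack Y-linked transcripts Mmp8 was not called (adjusted p = 0.181), where 20.3% of all genes were, nor was it with a block for numbers shared in the column names (0.0623).

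In sph/sph mice none of the 10 genes was called by edgeR for anti-CD40 against saline, where 0.78% of all genes were called. At an unadjusted p under 0.05 there were 3 of the 10, beside 2901 of all 13844 genes tested. DESeq2 called 3, beside 1372 of these 13844 genes, and limma-voom 1, beside 88. Mmp14 stood at 324, 400.3 and 60.3 CPM in sph/sph anti-CD40 (libraries A to C), against 63.1, 78.4 and 34.5 CPM in sph/sph saline (log2 fold 2.16 ± 0.58, adjusted p = 0.0949). Libraries A and B were above every saline library and C was within their range. Mmp27 stood at 20.6, 19.5 and 62.1 CPM in sph/sph anti-CD40, against 149, 105 and 140 CPM in sph/sph saline (log2 fold -1.94 ± 0.47, adjusted p = 0.0782). Timp2 stood at 106, 145 and 218 CPM in sph/sph anti-CD40, against 355, 342 and 434 CPM in sph/sph saline (log2 fold -1.27 ± 0.37, adjusted p = 0.108). The groups of Mmp27 and of Timp2 did not overlap, 2 of the 10 genes against 21.7% of all genes, and library C was the nearest to saline in both.

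Without sph/sph anti-CD40 C these 3 genes were called: Mmp14 rose (log2 fold 2.62, adjusted p = 0.00176), and Mmp27 (-2.72, adjusted p = 0.00175) and Timp2 (-1.60, adjusted p = 0.0229) fell, where 16.9% of all genes were called, 9.83% higher and 7.04% lower. Timp2 was also called without WT anti-CD40 A (adjusted p = 0.0415). The other 7 genes were not called with or without that library. Mmp8 stood at 11.3, 10.35 and 2.43 CPM in sph/sph anti-CD40, against 3.92, 2.02 and 1.69 CPM in sph/sph saline (log2 fold 1.66 ± 0.83). Mmp12 stood at 15.6, 5.99 and 4.86 CPM in sph/sph anti-CD40, against 22.4, 8.85 and 10.6 CPM in sph/sph saline, and library A was the highest in both groups. Mmp13 spread most, at 12.4, 4.88 and 0.486 CPM in sph/sph anti-CD40 and 3.26, 0.9499 and 1.57 CPM in sph/sph saline (log2 fold 1.61 ± 0.96). Timp1 stayed under 1 CPM in all 6 sph/sph libraries, at 0.345, 0.888 and 0.432 CPM after the antibody and at 0.798, 0.772 and 0.116 CPM after saline (log2 fold -0.02 ± 0.68), and Adamts4 stood at 1.24, 4.36 and 3.35 CPM after the antibody and 1.60, 3.56 and 0.815 CPM after saline (0.58 ± 0.72).

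After the antibody, sph/sph livers differed from WT in 8 of the 10 genes, against 17.7% of all genes tested, 11.5% higher and 6.19% lower. Higher in sph/sph were Mmp27 (log2 fold 8.70 ± 0.77, adjusted p = 9.7e-05), Mmp13 (4.06 ± 1.09, 0.0291), Mmp12 (3.96 ± 0.76, 0.00624), Mmp19 (2.56 ± 0.45, 0.00415) and Timp2 (2.31 ± 0.38, 0.00287). Lower were Timp1 (-4.40 ± 0.70, 0.00234), Adamts4 (-4.27 ± 0.77, 0.00455) and Mmp9 (-3.30 ± 0.59, 0.00457). Mmp19, for example, stood at 66.8, 98.7 and 77.7 CPM in sph/sph anti-CD40, against 24.7, 6.19 and 10.4 CPM in WT anti-CD40. Mmp9 stood at 4.56, 2.52 and 2.05 CPM in sph/sph anti-CD40, against 41.2, 35.6 and 13.1 CPM in WT anti-CD40, so its separation between genotypes was present under both treatments. Groups did not overlap in 8 of the 10 genes, against 28.4% of all genes. The exceptions were Mmp13, whose library C in sph/sph (0.486 CPM) lay within the WT range of 0.105 to 0.665 CPM, and Mmp8. Mmp14 was not called although its groups did not overlap (log2 fold -1.24 ± 0.56, adjusted p = 0.163).

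All 8 macrophage markers and 11 of 13 Kupffer cell markers were higher in sph/sph than in WT after the antibody as well, as were all 8 erythroid markers (3844 to 14710 CPM in sph/sph anti-CD40 and 29.9 to 180 CPM in WT anti-CD40) and all 5 eosinophil markers (131 to 336 CPM in sph/sph anti-CD40 and 1.77 to 2.41 CPM in WT anti-CD40). Lower in sph/sph, as Timp1, Adamts4 and Mmp9 were, were 6 of 12 T and NK cell markers (5.62 to 92.8 CPM in sph/sph anti-CD40 and 228 to 2023 CPM in WT anti-CD40), 2 of 9 dendritic cell markers (79.4 to 395 CPM in sph/sph anti-CD40 and 563 to 1431 CPM in WT anti-CD40) and 2 of 12 endothelial markers (390 to 2519 CPM in sph/sph anti-CD40 and 1236 to 4509 CPM in WT anti-CD40). Of 16 neutrophil markers 3 were higher and 1 lower. The part of these cells in the differences of the 8 genes was not tested. When only the 2 anti-CD40 groups were fitted, 5 of the 10 genes were called, beside 735 of all 13230 genes tested in that fit. Mmp12, Mmp13 and Timp2 were not called there (adjusted p = 0.062, 0.127 and 0.0515, in that order). Mmp13 also lost its call by limma-voom (adjusted p = 0.185) and without WT anti-CD40 B or C or sph/sph anti-CD40 A or B (0.0952, 0.102, 0.0906 and 0.0511), and Mmp9 without the 4 libraries that lack Y-linked transcripts (0.0574, where 8.36% of all genes were called), as did Mmp13 (0.117).

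The response to the antibody differed between the genotypes in 4 of the 10 genes by the interaction term, where 4.3% of all genes were called, 3.18% with a positive and 1.12% with a negative difference. Mmp27 and Mmp12 fell in WT more than in sph/sph, with differences of 7.60 ± 0.91 (adjusted p = 0.00144) and 4.81 ± 0.98 (adjusted p = 0.0239) on the log2 scale, sph/sph response minus WT response. Adamts4 (-6.16 ± 1.09, adjusted p = 0.0123) and Timp1 (-5.50 ± 0.99, adjusted p = 0.0126) rose in WT and were not called in sph/sph. For Mmp13 (5.36 ± 1.44, adjusted p = 0.069), Timp2 (1.84 ± 0.52, 0.0797) and Mmp14 (-2.03 ± 0.79, 0.195) the difference missed the threshold, which does not show that the responses were alike. Limma-voom called 1 of the 10, Timp1, beside 495 of all 13844 genes tested. Its adjusted p was 0.0532 for Mmp27 and 0.0507 for Mmp12 and Adamts4. Mmp12 was also not called without any 1 of WT saline A or C, sph/sph saline B or C or WT anti-CD40 C (adjusted p from 0.0553 to 0.0725), and Mmp13 was called without sph/sph anti-CD40 C (0.0123). Without the 4 libraries that lack Y-linked transcripts, where 1.09% of all genes were called, Mmp12 (0.0511), Timp1 and Adamts4 (0.107 each) were not called and Timp2 was (0.0425). DESeq2 called Mmp13 (0.00247) and Timp2 (0.013) as well, and Timp2 was called without WT anti-CD40 A (0.00492), as was Mmp19 (0.0405).

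**Figure D3:**
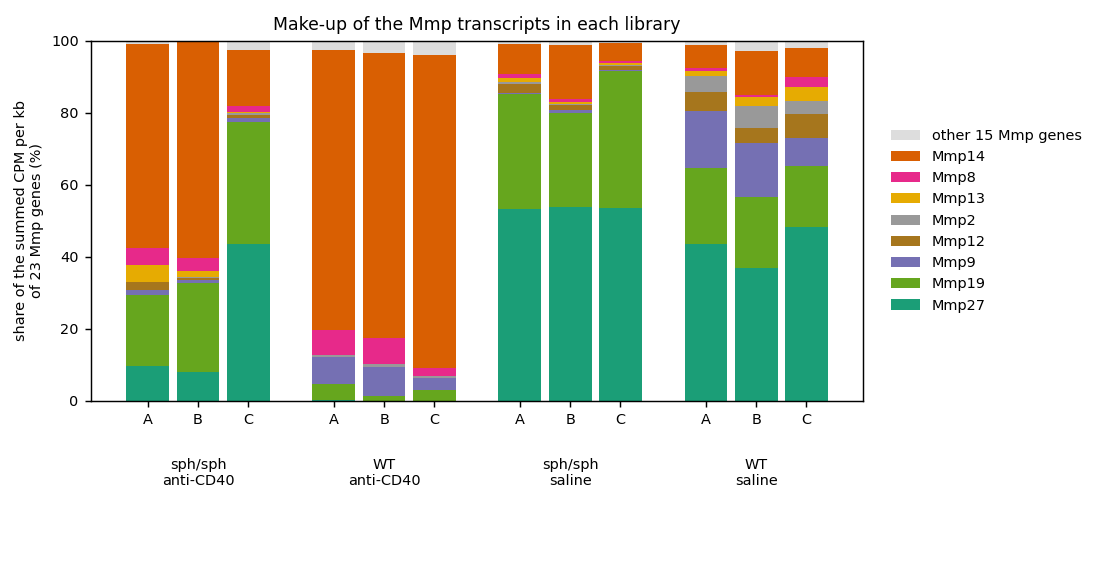
Share of each Mmp gene in the summed CPM per kb of all 23 Mmp genes (vertical axis, percent), with 1 bar per library and the 4 groups from sph/sph anti-CD40 on the left to WT saline on the right. Mmp14 takes 77.9% to 86.9% in WT anti-CD40, and Mmp27 takes over 50% in each sph/sph saline library.

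The make-up of the Mmp transcripts shifted with these changes. Of the summed CPM per kb of the 23 Mmp genes, Mmp14 took 56.4%, 59.9% and 15.7% in sph/sph anti-CD40 A, B and C, 77.9%, 79.3% and 86.9% in WT anti-CD40, 8.36%, 14.9% and 4.91% in sph/sph saline and 6.41%, 12.3% and 8.16% in WT saline. Mmp27 took 9.66%, 7.88% and 43.5% in sph/sph anti-CD40, at most 0.0586% in WT anti-CD40, 53.2%, 53.8% and 53.6% in sph/sph saline and 43.6%, 37.0% and 48.3% in WT saline. Library C of sph/sph anti-CD40 had thus a make-up nearer to the saline libraries than A and B had. Mmp9 took 0.126% to 0.836% in sph/sph saline and 7.81% to 15.6% in WT saline. The sum itself was 91.1 ± 24.2 CPM per kb in sph/sph anti-CD40, 128 ± 24.8 in WT anti-CD40, 111 ± 20.0 in sph/sph saline and 64.0 ± 7.75 in WT saline (SD, n = 3 each).

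Mmp14 and its partner Timp2 crossed over. The ratio of Mmp14 to Timp2 in CPM per kb was 2.00, 1.81 and 0.181 in sph/sph anti-CD40 A, B and C, 8.87, 20.1 and 15.4 in WT anti-CD40, 0.116, 0.150 and 0.0520 in sph/sph saline and 0.0537, 0.104 and 0.0858 in WT saline. WT anti-CD40 libraries were above all others, and library C of sph/sph anti-CD40 lay just above the saline range. Mmp2, the gelatinase whose precursor the pair activates, fell in WT to 1.85 ± 0.635 CPM after anti-CD40, against 9.94 ± 1.86 CPM after saline (log2 fold -2.42 ± 0.61, adjusted p = 0.0109). Under saline it stood at 1.501 ± 0.723 CPM in sph/sph and 9.94 ± 1.86 CPM in WT without overlap (log2 fold -2.73 ± 0.62, adjusted p = 0.0541).

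**Figure D4:**
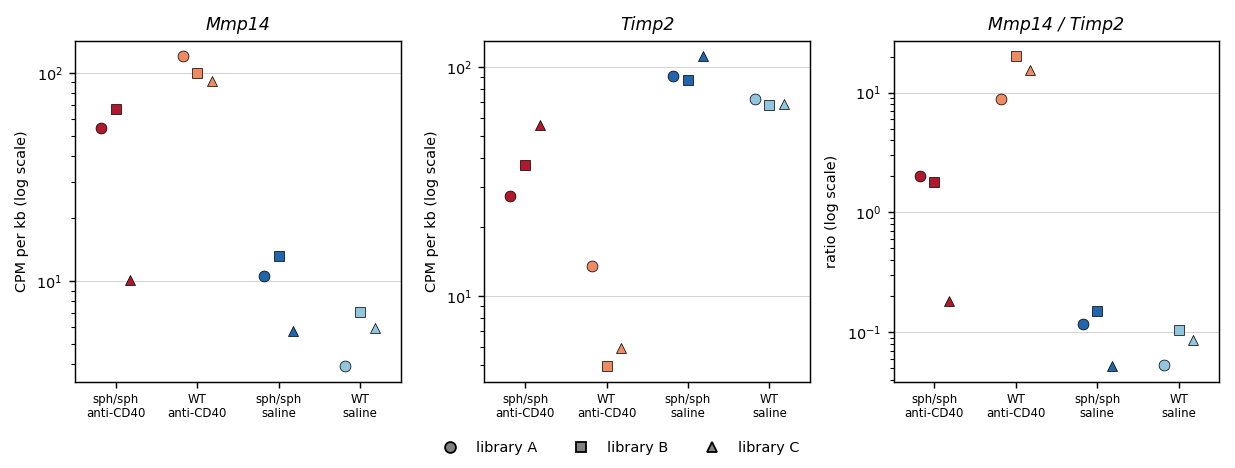
Mmp14, Timp2 and their ratio in each library, in CPM per kb and as a ratio, all on log axes, with the groups from sph/sph anti-CD40 on the left to WT saline on the right. The ratio lies between 8.87 and 20.1 in WT anti-CD40 and at or under 0.150 in the 6 saline libraries.

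Of the 16 other Mmp genes 7 had counts enough to be tested, and 3 of these were called for the antibody in WT, where 39.2% of all genes were. With the antibody in WT Mmp25, a membrane-anchored enzyme of leukocytes (log2 fold 6.57 ± 1.25), and Mmp28 (2.80 ± 0.98, adjusted p = 0.0444) rose and Mmp2 fell. Mmp28 overlapped between the WT groups, at 0.665, 8.55 and 9.70 CPM in WT anti-CD40 A, B and C and 0.321, 0.989 and 1.385 CPM in WT saline. After the antibody Mmp25 and Mmp28 were lower in sph/sph than in WT (-3.51 ± 1.01 and -5.61 ± 1.19). Of the 18 other Adamts genes 10 were tested and 4 of these were not called in WT: 5 rose, led by Adamts14 (4.14 ± 1.07), Adamts1 (4.11 ± 1.09), Adamts9 (3.43 ± 1.00) and Adamts6 (3.15 ± 1.08), and Adamts2 fell (-2.47 ± 0.80). After the antibody 4 of the 10 were lower in sph/sph than in WT, where 6.19% of all genes were: Adamts14, Adamts1, Adamts7 and Adamts9. Adamts1 stood at 3.18, 15.4 and 35.6 CPM in sph/sph anti-CD40, against 77.6, 488 and 579 CPM in WT anti-CD40, where library A was the lowest as it was for Adamts4. Timp3, an inhibitor that binds to the matrix, stood at 389, 1155 and 2652 CPM in WT anti-CD40 and at 42.8, 134 and 56.6 CPM in WT saline (log2 fold 4.17 ± 1.16, adjusted p = 0.0173), with library A again the lowest, and Timp4 had too few counts to test.

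For anti-CD40 in WT 39.2% of all genes tested were called, 19.4% higher and 19.7% lower, the share beside which the WT counts that follow stand. Of 10 ADAM genes, most of them sheddases of the cell surface, 3 rose and 3 fell of 9 tested in WT, among them Adam8 (4.57 ± 0.72), Adam15 (3.41 ± 0.48) and Adamdec1, a soluble member (-7.65 ± 0.37). Adamdec1 was also called between genotypes under saline: it stood at 95.1, 91.5 and 109 CPM in sph/sph saline and 387, 323 and 446 CPM in WT saline (-1.97 ± 0.28, adjusted p = 0.00665). Of 10 plasminogen system genes 6 rose in WT and none fell, among them Serpinb2 (4.55 ± 1.35), Plat (3.88 ± 0.92) and Plau, the urokinase that starts plasmin-driven activation of metalloproteinases (2.91 ± 0.66). The size of the Serpinb2 rise rests on library A: it stood at 38.1, 0.892 and 0.936 CPM in WT anti-CD40 A, B and C, against 0.499 to 0.604 CPM in WT saline. Among 9 tested genes that activate, bind or clear metalloproteinases 3 rose in WT, Lcn2, which binds Mmp9 (5.43 ± 1.45), Rhoc (2.82 ± 0.25) and the convertase Furin (0.45 ± 0.13), and 2 fell, Lrp1, a receptor that clears proteases (-2.80 ± 0.42), and Cst3 (-1.85 ± 0.24). Of 10 other proteases Lgmn (-2.99 ± 0.22), Ctsb (-2.27 ± 0.31) and Ctss (-1.44 ± 0.39) fell and Htra1 (3.74 ± 1.24) rose in WT, and 5 were higher in sph/sph than in WT after the antibody, among them Ctsg and Elane, granule proteases of immature granulocytes that were highest in library C. Of 18 tested matrix genes 3 rose in WT, Col4a2 (3.82 ± 1.00), Spp1 (3.77 ± 0.93) and Col4a1 (3.64 ± 0.87), and Col14a1 fell (-3.78 ± 0.94).

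Over the 12 libraries the genes whose log2(CPM + 0.5) followed a member most closely were Hpgds (r = 0.994), Mettl7a1 (0.994) and Ccdc148 (0.993) for Mmp27, Osbpl3 (0.991), Xpnpep1 (0.990) and Sec23ip (0.982) for Mmp14, and Fam234a, Abcg3 and Slc38a6 (0.988 to 0.990) for Timp2. Rtn4rl2 was the nearest gene to both Timp1 (0.983) and Adamts4 (0.982), which followed each other with r = 0.963. Chil3 (0.959) was among the 3 nearest genes to Mmp8, with Ddx28 (0.975) and Spidr (0.962). Mmp9 had the nearest genes Dscaml1 (0.955), Chst1 (0.940) and Ces2c (0.919). Among the members its highest correlation was with Timp1 (0.443) and its lowest with Mmp19 (-0.774). The libraries share the group structure, so these values describe patterns across the 4 groups.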

How the data were processed

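The 12 libraries and the gene lists come from 1 table of raw read counts per Ensembl gene, deposited by the authors with no normalization that the values show. The tools were featureCounts, STAR 2.7.0e and SAMtools 1.9 on GRCm38.p5, per the submitters' processing notes. Neither annotation release nor strand setting was found there, so genes that overlap on opposite strands are uncertain. Columns name genotype and treatment but not the labels' replicate numbers, so A to C follow the column order. Library A of both genotypes shares a number in the column names under saline, and likewise under anti-CD40, and what these numbers stand for is not stated. The series' design text counts 3 mice per group. Of 25700 identifiers 25587 matched a symbol.

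Calls used edgeR 4.0.16 in R 4.3.3 (filterByExpr, TMM, robust quasi-likelihood tests with 1 mean for each of the 4 groups over the 12 libraries, Benjamini-Hochberg adjustment over 13844 genes, threshold 0.05). SE is the size of the log2 fold over the square root of F. DESeq2 1.42.0 and limma-voom (limma 3.58.1), another scaling, other filters, fits of fewer libraries, a term for Y-linked transcripts and a block for the shared numbers were alternatives. CPM per kb divides by the union of GENCODE M21 exons. The fit was tested on simulated data. The members and lists were chosen with earlier results of these data known; at most 4 called genes per list and comparison, those with the largest folds, are named. Adamts2, Furin and, under saline, Mmp2 fall outside that rule and were named after their values were seen. Some items are not reported here.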

Additional observations from a re-analysis of the deposited data

Results flagged for a closer look

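The difference between the genotypes in the response to anti-CD40, sph/sph response minus WT response on the log2 scale, passed the interaction test in 4 of the 10 genes: Mmp27 (7.60), Mmp12 (4.81), Timp1 (-5.50) and Adamts4 (-6.16). With 3 libraries a group, no library was tested for lying apart from its own group.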

How the results depend on the processing

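The block on the labels' replicate numbers was not run, since the table's columns do not carry them. A replicate block added after seeing the data, with a term for each of the 2 numbers that column names share (library A of both genotypes under saline, and under anti-CD40), called 1, 8, 0, 8 and 4 of the 10 genes for genotype under saline, anti-CD40 in WT, anti-CD40 in sph/sph, genotype under anti-CD40 and the interaction, and lost the call of Mmp8 in WT (adjusted p = 0.0623) and no other. Over all genes that block called 228, 4279, 1, 2388 and 499 in the same order. Across genes, deviations from the group means correlated at 0.028 for the saline pair and 0.402 for the anti-CD40 pair. Over the alternatives, 1089 log2 folds of the 10 genes were recomputed: 32 calls were lost, 19 gained and none reversed, and no mean level moved by more than its SD under another scaling. The number of the 10 genes called for genotype under saline (1) became 2 by DESeq2, 3 in a fit of these groups alone and 0 without the 4 libraries lacking Y-linked transcripts (an alternative chosen after seeing the data, like the Y-linked term), and ran from 1 to 2 when 1 library was left out. For anti-CD40 in WT (9) it ran from 7 to 9. For anti-CD40 in sph/sph (0) it was 3 by DESeq2 and 1 by limma-voom, and ran from 0 to 3. For genotype under anti-CD40 (8) it was 5 in the fit of these groups alone and ran from 7 to 8. For the interaction (4) it was 1 by limma-voom and 2 without the 4 libraries, and ran from 3 to 6. Calls over all genes, in the same order of comparisons, were 282, 5420, 108, 2455 and 595. DESeq2 gave 831 for genotype under saline, 1372 for anti-CD40 in sph/sph and 1393 for the interaction. The edgeR fit of the compared groups alone gave 891 for genotype under saline, 0 for anti-CD40 in sph/sph (2056 at an unadjusted p under 0.05) and 735 for genotype under anti-CD40. Without the 4 libraries the counts were 13, 2845, 0 (1237 at an unadjusted p under 0.05), 1174 and 153, in the same order. Leaving out 1 library gave 73 to 539, 3841 to 6583, 0 to 2372, 1355 to 3408 and 259 to 944. The 2372 came without sph/sph anti-CD40 C, and 0 without any 1 of the sph/sph saline libraries. The cause was not tested. Timp1 outside WT anti-CD40 had at most 13 counts a library and Mmp27 within it at most 3. Adamts4 had 4, 3 and 21 counts in WT saline A, B and C. In WT anti-CD40 A, B and C Mmp12 had 17, 2 and 10 counts and Mmp13 had 10, 2 and 6. All these levels rest on few reads.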
